A study of Mus musculus with 15 samples.

Results

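The Cyp4 genes described here encode fatty acid hydroxylases of the cytochrome P450 family: Cyp4a10, Cyp4a12a, Cyp4a12b, Cyp4a14, Cyp4a31, Cyp4a32, Cyp4f14, Cyp4f15 and Cyp4v3. They were chosen by name, by matching the Ensembl identifiers of the count table to gene symbols. All 9 were found among the 56980 genes of the table, and all 9 were among the 14627 genes with enough reads to be tested. RNA was sequenced from livers of wild-type male C57BL/6J mice that were 15 weeks old when the diets began and stayed on them for 9 months. The control diet held 10% fat, the high-fat diet 60% and the ketogenic diet 89.9%. Each diet had 5 libraries. Control replicate 1 was excluded by the submitters as contaminated, so the comparisons used 4 control, 5 high-fat and 5 ketogenic libraries. The labels do not say that the libraries of a diet are separate mice, and p-values measure only the spread between these samples.

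Cyp4 enzymes add a hydroxyl group to the last carbon of a fatty acid, the first step of omega-oxidation. Alcohol and aldehyde dehydrogenases then turn the product into a dicarboxylic acid, which peroxisomes shorten. Cyp4a10 and Cyp4a14 are classic targets of the lipid-sensing receptor PPAR-alpha in rodent liver. Cyp4a12a is the main arachidonic acid hydroxylase of male mice, while Cyp4f enzymes also act on leukotrienes and other eicosanoids.

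In both fat-rich diets, Cyp4a10, Cyp4a14, Cyp4a31 and Cyp4a32 rose and Cyp4f14 fell relative to the control diet. The largest differences were those of Cyp4a14, 157-fold in high-fat and 262-fold in ketogenic livers, and of Cyp4a10, 43.3-fold and 52.0-fold. Cyp4a12a, Cyp4a12b, Cyp4f15 and Cyp4v3 passed the test in neither comparison with control. No member passed it between the ketogenic and the high-fat diet.

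Some members are near-identical copies, and their sequences set how far reads can tell them apart. In the GENCODE M21 annotation of the GRCm38 build, the 6 Cyp4a genes lie on chromosome 4, Cyp4f14 and Cyp4f15 on chromosome 17 and Cyp4v3 on chromosome 8. Cyp4a12a and Cyp4a12b differ at 23 of 1527 coding bases (98.5% identity), with an identical run of 342 bases. The 90 coding bases in which they differ most, bases 661 to 750 counted from the start codon, lie in exon 6, at chr4:115326659-115326748 for Cyp4a12a and chr4:115432912-115433001 for Cyp4a12b, both on the plus strand. They are shown because only reads that cover such bases separate the pair. Capitals mark the 7 bases that differ.
Cyp4a12a: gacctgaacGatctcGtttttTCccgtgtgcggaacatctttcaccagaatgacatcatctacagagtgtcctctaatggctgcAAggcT
Cyp4a12b: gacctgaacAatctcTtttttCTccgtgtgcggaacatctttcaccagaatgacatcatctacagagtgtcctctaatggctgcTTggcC

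Cyp4a10, Cyp4a31 and Cyp4a32 form the other set of close copies. Cyp4a10 shares 97.2% of its coding bases with Cyp4a32 and 96.6% with Cyp4a31, and Cyp4a31 and Cyp4a32 share 96.0%. Across the set, 77 of 1530 coding bases differ, with an identical run of 148 bases. The stretch in which the copies differ most, coding bases 190 to 279, lies in exon 2 on the plus strand, at chr4:115519630-115519719 for Cyp4a10, chr4:115565010-115565099 for Cyp4a31 and chr4:115602260-115602349 for Cyp4a32. Capitals mark the 13 positions at which not all copies agree.
Cyp4a10: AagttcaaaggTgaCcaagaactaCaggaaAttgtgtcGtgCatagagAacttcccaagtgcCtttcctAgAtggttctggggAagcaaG
Cyp4a31: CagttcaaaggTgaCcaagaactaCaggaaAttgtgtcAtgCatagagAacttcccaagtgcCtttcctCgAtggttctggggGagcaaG
Cyp4a32: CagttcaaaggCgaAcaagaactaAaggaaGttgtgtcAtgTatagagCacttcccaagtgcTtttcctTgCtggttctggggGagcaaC

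The remaining members are easier to separate. Of all stretches of 100 coding bases, 41.5% in Cyp4a12a and Cyp4a12b, 17.9% in Cyp4a10, 13.8% in Cyp4a31 and 20.1% in Cyp4a32 occur unchanged in another Cyp4 gene. The corresponding share was 0% in Cyp4a14, Cyp4f14, Cyp4f15 and Cyp4v3. Over stretches of 50 coding bases it was 54.9% in Cyp4a12a and Cyp4a12b, 40.6% in Cyp4a10, 31.5% in Cyp4a31 and 46.8% in Cyp4a32. It was then 0.41% in Cyp4a14, 3.87% in Cyp4f14, 3.34% in Cyp4f15 and 0% in Cyp4v3. Cyp4a14 shares 77.9% of its coding bases with Cyp4a10, and Cyp4f14 shares 82.2% with Cyp4f15. The sources used here do not say how the authors counted reads that match several genes. As single genes, values within the sets Cyp4a12a/Cyp4a12b and Cyp4a10/Cyp4a31/Cyp4a32 are therefore uncertain, and each set is also given as a sum.

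Promoter sequence was at hand for Cyp4a32, Cyp4f14, Cyp4f15 and Cyp4v3, 4 of the 9 members. The 250 bases before the RefSeq starts (GRCm38.p6) are shown for Cyp4a32, which rose, and for Cyp4f14, which fell. The Cyp4a32 sequence lies at chr4:115600688-115600937 on the plus strand. The Cyp4f14 sequence lies at chr17:32917357-32917606 on the minus strand, before the most upstream of its 4 annotated starts. Capitals mark the letters TATAAA and CCAAT on either strand, which read TTTATA and ATTGG where they lie on the other strand.
Cyp4a32: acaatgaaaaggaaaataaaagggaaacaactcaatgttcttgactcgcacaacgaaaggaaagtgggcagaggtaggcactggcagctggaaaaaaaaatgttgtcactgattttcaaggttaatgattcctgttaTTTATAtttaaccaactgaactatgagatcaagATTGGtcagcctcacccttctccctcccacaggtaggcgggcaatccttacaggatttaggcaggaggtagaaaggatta
Cyp4f14: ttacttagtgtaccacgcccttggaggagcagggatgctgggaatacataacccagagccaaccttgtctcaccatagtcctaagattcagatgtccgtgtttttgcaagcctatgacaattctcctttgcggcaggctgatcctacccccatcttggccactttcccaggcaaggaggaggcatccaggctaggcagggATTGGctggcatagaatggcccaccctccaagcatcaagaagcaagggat

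The Cyp4a32 promoter holds a TATAAA match that begins 113 bases before the start and a CCAAT match that begins 80 bases before it. The Cyp4f14 promoter holds a CCAAT match that begins 50 bases before the start. Over the 300-base windows of all 32851 promoters in the table, 13.6% held TATAAA and 37.4% held CCAAT on either strand. Of the 7 promoter windows of the 4 members, 1 held TATAAA and 6 held CCAAT. Of the 7, 4 belong to Cyp4f14 and overlap with one another, and 3 of these hold the same CCAAT match, so the windows are not separate cases. The letters AGGTCANAGGTCA, in which N is any base, were searched because PPAR-alpha binds pairs of this half-site. They occurred in 0 of the 7 member windows and in 0.0396% of all promoters. The looser form AGGNCANAGGNCA occurred in 0 of 7 and in 0.381%. The search covered only this window around each start.

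Total counts ran from 16329425 to 25349148 over the 14 libraries. Levels are given as CPM, read counts scaled to library size with TMM factors, and every log2 fold change is printed with its standard error. A gene was called where edgeR's quasi-likelihood test gave a Benjamini-Hochberg adjusted p under 0.05 over all tested genes. Both comparisons with control share the same 4 control libraries. Ketogenic replicate 5 stood apart among the members, as the lowest of its 5 libraries for 7 of 9 genes. Among the controls, replicate 5 was the highest for 7 of 9 genes and replicate 4 the lowest for 6. High-fat replicate 1 was the lowest of its diet for Cyp4a10, Cyp4a14 and Cyp4a31. Without both libraries, the same 5 members passed the test against control in each fat-rich diet. The liver label was checked on 8 hepatocyte markers, all of which were present in every diet. They summed to 122701 to 155697 CPM in control libraries. The sum was 81036 to 114249 CPM on the high-fat diet and 61783 to 110912 CPM on the ketogenic diet, lowest in ketogenic replicate 5. In liver tissue as a whole, fewer cells of a type and less RNA per cell cannot be told apart. Of other tissues that express Cyp4 genes, 7 kidney tubule markers summed to between 0.149 and 5.43 CPM, with 5 of the 7 at 0 in control and ketogenic libraries and Slc5a2 at 0 in all diets. The 5 adipocyte markers summed to 2.63 to 17.7 CPM in control, 12.2 to 46.4 CPM in high-fat and 11.5 to 169.9 CPM in ketogenic livers. By mean, Cfd made up most, at 4.83, 21.1 and 64.8 CPM, and passed the test in ketogenic livers only (adjusted p = 0.0139). The means of Adipoq, Plin1 and Retn were lower in both fat-rich diets than in control. Lep had a mean of 0.256 CPM in control, 0.810 in high-fat and 0.247 in ketogenic livers. The 4 intestinal epithelium markers summed to 26.5 to 98.8 CPM in control, 103 to 154 CPM in high-fat and 116 to 162 CPM in ketogenic livers, with Sis at 0 in the ketogenic diet. Only Fabp2, which rose by 1.45 and 1.62 on the log2 scale, made the sum higher. Vil1 stood at -2.78 on that scale in high-fat livers (adjusted p = 0.0902) and fell by 3.87 in ketogenic livers (adjusted p = 0.0327). The means of Lct and Sis were lower in both diets, but all of their control signal came from 1 library. Control values ran from 0 to 8.71 CPM for Lct, 0 to 13.6 CPM for Sis and 0.171 to 11.9 CPM for Vil1. The highest control sum of intestinal markers, 98.8 CPM, was that of control replicate 2. Control replicate 2 held the highest sums of other markers, with 1644 CPM over 10 pancreatic acinar markers and 94.1 CPM over 6 neutrophil markers. The other controls had 25.4 to 175 CPM and 1.08 to 2.80 CPM of these. Acinar sums were 107 to 742 CPM in high-fat and 6.88 to 331 CPM in ketogenic livers. Without control replicate 2, the same 5 members passed the test in each comparison with control. The 6 Kupffer cell markers summed to 230 to 362 CPM in control, 227 to 398.5 CPM in high-fat and 170 to 509 CPM in ketogenic livers. The 509 CPM was that of ketogenic replicate 5. Of the 6, Cd163 (adjusted p = 0.0265) and Timd4 (adjusted p = 0.0454) fell in ketogenic livers, where 12.1% of all genes were called. In high-fat livers 0 of the 6 were called, where 12.0% of all genes were. The part of these markers in the results was not otherwise tested.

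**Figure D1:**
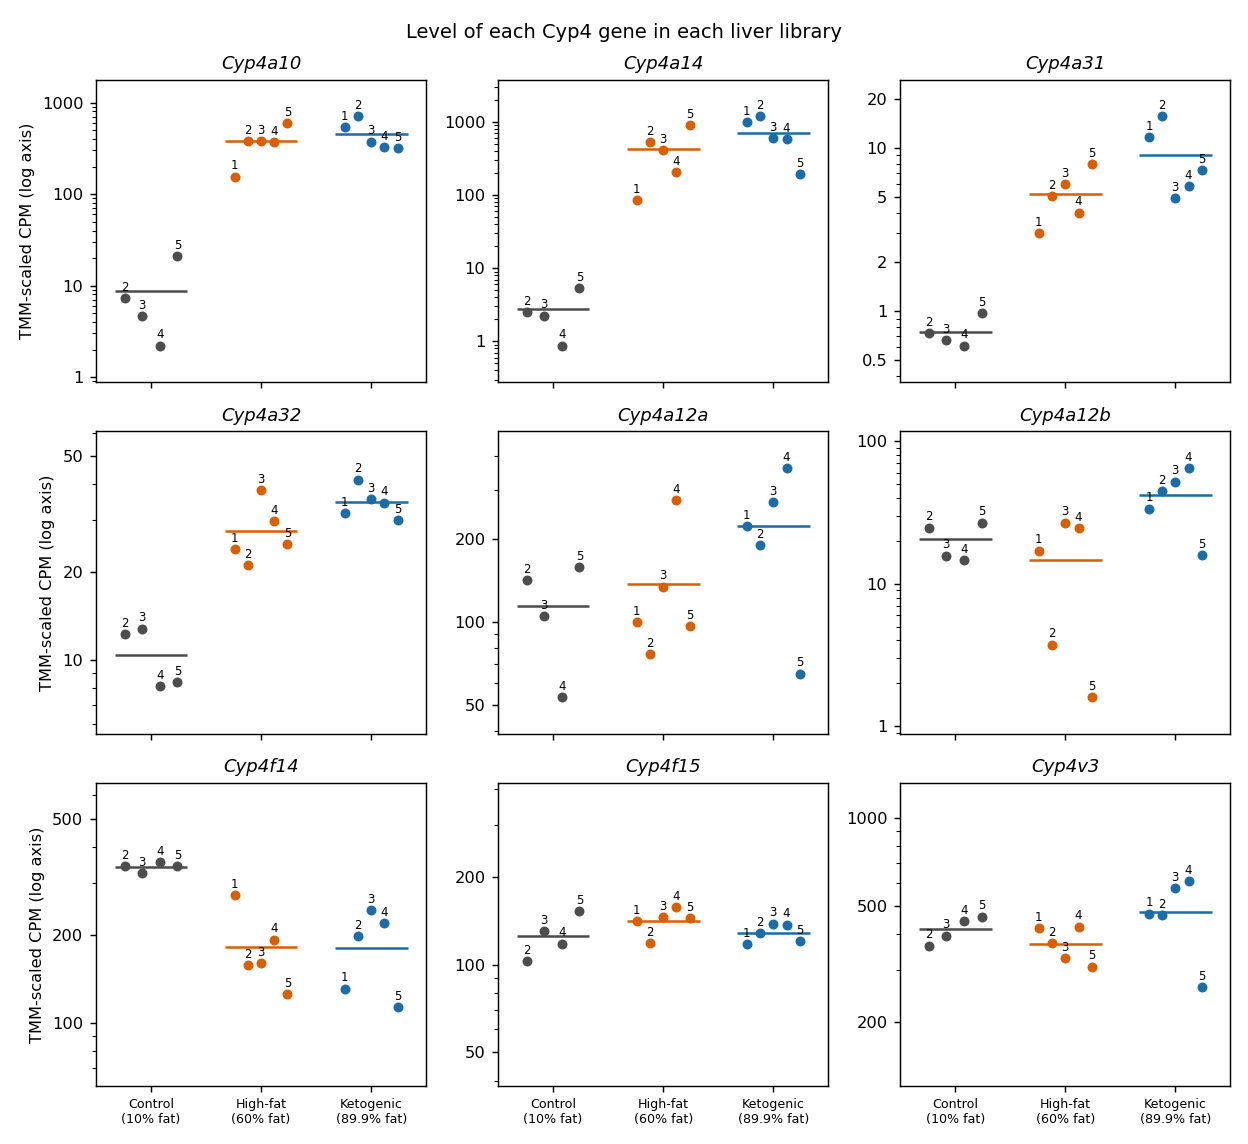
Levels of the 9 Cyp4 genes in each library, in TMM-scaled CPM on a log axis, by diet. Points are libraries and lines are diet means; Cyp4a10 and Cyp4a14 in control livers lie below 21 CPM and below 6 CPM, and every library of the fat-rich diets lies above them.

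Cyp4a14, one of the most inducible hydroxylases of rodent liver, was nearly silent in control livers. Control replicates 2 to 5 had 2.49, 2.24, 0.871 and 5.37 CPM. High-fat replicates 1 to 5 had 86.3, 527, 414, 207 and 911 CPM, and ketogenic replicates 1 to 5 had 1006, 1194, 597, 579 and 195 CPM. All 10 libraries of the fat-rich diets lay above all 4 controls, but within a diet the values spread widely. The highest library was 10.6 times the lowest in the high-fat diet and 6.11 times in the ketogenic diet. The log2 fold change was 7.30 ± 0.90 in high-fat livers (adjusted p = 0.000418) and 8.03 ± 0.93 in ketogenic livers (adjusted p = 0.000171). Among all tested genes these were the 5th and the 3rd highest fold changes of their comparisons. The control level rests on 17 to 94 reads a library, which limits the precision of both folds.

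Cyp4a10, a PPAR-alpha-responsive lauric acid hydroxylase, started from a low and variable control level. Its controls had 7.30, 4.68, 2.20 and 20.8 CPM, with replicate 5 above the other 3. The high-fat libraries had 155, 380.2, 377, 374 and 602 CPM, and the ketogenic libraries 539.9, 707, 376, 329 and 316 CPM. No library of a fat-rich diet overlapped with a control, while the fat-rich diets overlapped with each other. The log2 fold change against control was 5.44 ± 0.65 (adjusted p = 0.000292) in high-fat and 5.70 ± 0.65 (adjusted p = 0.000132) in ketogenic livers. Control replicate 5 bears on the size: without it the values were 6.32 and 6.58.

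Cyp4a31 and Cyp4a32, the close copies of Cyp4a10, rose by less. Cyp4a31 was the lowest member in every diet, with 0.735, 0.662, 0.615 and 0.971 CPM in control, 3.01, 5.04, 5.97, 4.01 and 7.96 in high-fat and 11.7, 15.6, 4.90, 5.83 and 7.32 in ketogenic libraries. Each control value of Cyp4a31 rests on 12 to 17 reads. The control libraries lay below all others, and its log2 fold change was 2.80 ± 0.39 (adjusted p = 0.000457) in high-fat and 3.60 ± 0.40 (adjusted p = 5.6e-05) in ketogenic livers. Cyp4a32 had 12.3, 12.8, 8.14 and 8.39 CPM in control, 23.9, 21.1, 38.0, 29.9 and 24.9 in high-fat and 31.7, 41.4, 35.6, 34.5 and 30.1 in ketogenic libraries. Its libraries were more alike within a diet than those of Cyp4a10, and the controls again lay below the rest. The log2 fold change of Cyp4a32 was 1.41 ± 0.19 (adjusted p = 0.000322) and 1.74 ± 0.19 (adjusted p = 4.33e-05).

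Summing the set changes the size of the rise but not its call. Cyp4a10, Cyp4a31 and Cyp4a32 together had 19.9 ± 7.95 CPM (SD, n = 4) in control, 410.4 ± 160.1 (SD, n = 5) in high-fat and 497 ± 175 (SD, n = 5) in ketogenic livers. Fitted as 1 feature, they gave a log2 fold change of 4.37 ± 0.40 (adjusted p = 1.75e-05) in high-fat and 4.64 ± 0.41 (adjusted p = 1.15e-05) in ketogenic livers. Per kb of exon, Cyp4a10 made up 32.2% ± 21.2 of the set in control livers, with a range of 15.8% to 62.8%. In high-fat livers it made up 88.7% ± 4.79 and in ketogenic livers 88.6% ± 2.27. Reads counted to the wrong copy would move these shares, and their number is unknown.

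Cyp4f14, a hepatic hydroxylase of leukotriene B4 and fatty acids, was the member that fell. Its controls were tight, at 343, 326, 355 and 343 CPM. The high-fat libraries had 273, 157, 160.0, 192 and 125 CPM and the ketogenic libraries 131, 197, 242, 219 and 113 CPM. All of them lay below every control, and the fat-rich diets overlapped almost completely. The level fell by 0.91 ± 0.23 on the log2 scale in high-fat livers (adjusted p = 0.0178), to 0.531 of the control level, and by 0.92 ± 0.23 in ketogenic livers (adjusted p = 0.0158). Without control replicate 4 the high-fat difference had an adjusted p of 0.0526 and was no longer called, at a fall of 0.89. Hepatocyte markers were also lower in both fat-rich diets, as given above. One of the 8 passed the test in each comparison, where 12.0% and 12.1% of all genes were called. The part of this shift in hepatocyte markers in the Cyp4f14 result was not tested.

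**Figure D2:**
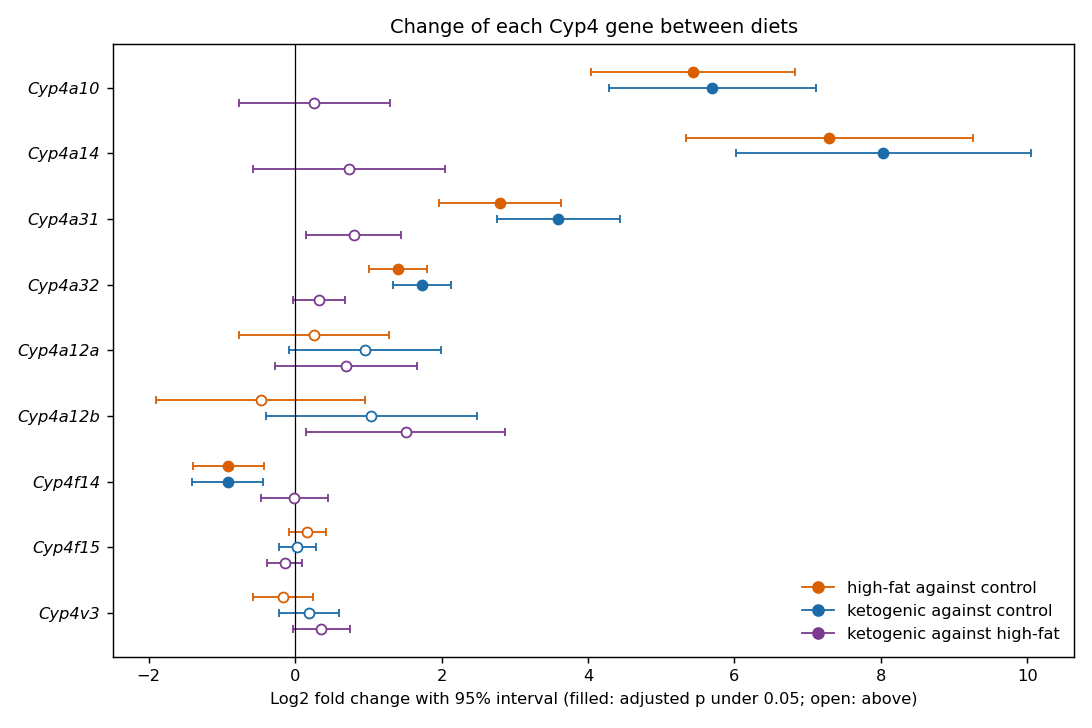
Log2 fold changes of the 9 Cyp4 genes with 95% intervals in the 3 comparisons. Filled points passed the test: 4 Cyp4a genes are higher and Cyp4f14 is lower in both fat-rich diets against control, and no point is filled in ketogenic against high-fat.

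Counted over the members, 4 were higher and 1 was lower in high-fat than in control livers, and 4 were not called. Of all tested genes, 12.0% were called in that comparison, 6.95% higher and 5.01% lower. The same counts, 4 higher and 1 lower, held in ketogenic against control, where 12.1% of all genes were called, 7.47% higher and 4.60% lower. Of the 4 that rose, Cyp4a10, Cyp4a31 and Cyp4a32 are close copies that may share reads, so they are not separate cases. Fitted as 1 feature, this set was higher in both comparisons, by 4.37 in high-fat and 4.64 in ketogenic livers on the log2 scale. The 5 called members are also those whose libraries did not overlap with control. Across all genes, values of both diets did not overlap for 16.2% in the high-fat and 12.5% in the ketogenic comparison. The median log2 fold change over the 9 members was 0.26 in high-fat and 1.04 in ketogenic livers, against 0.01 and 0.03 over all tested genes.

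Cyp4a12a and Cyp4a12b varied strongly between libraries of one diet. Cyp4a12a had 141, 105, 53.1 and 158 CPM in control, 99.6, 76.4, 134, 276 and 96.2 in high-fat and 222, 189, 271, 360.4 and 64.7 in ketogenic libraries. The 3 diets overlapped: the highest high-fat library lay above all controls, and ketogenic replicate 5 lay below 3 of 4 controls. The log2 fold change was 0.26 ± 0.48 in high-fat livers (95% interval -0.77 to 1.28, adjusted p = 0.776), and without high-fat replicate 4 it was -0.17. In ketogenic livers it was 0.95 ± 0.48 (-0.09 to 2.0, adjusted p = 0.218), and without ketogenic replicate 5 it was 1.18 (adjusted p = 0.0989).

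Cyp4a12b, the less abundant copy, had 24.8, 15.8, 14.7 and 26.9 CPM in control and 17.1, 3.73, 26.9, 24.5 and 1.59 in high-fat libraries. It had 33.7, 44.5, 52.2, 64.9 and 15.8 CPM in ketogenic libraries. High-fat replicates 2 and 5 were far below the other 3 of their diet. Of the ketogenic libraries, all but replicate 5 lay above every control and every high-fat library. The log2 fold change was -0.47 ± 0.66 in high-fat (adjusted p = 0.690) and 1.04 ± 0.66 in ketogenic livers (adjusted p = 0.331).

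As a sum, Cyp4a12a and Cyp4a12b had 135 ± 52.2 CPM in control, 151 ± 88.6 in high-fat and 264 ± 127 in ketogenic livers. Fitted as 1 feature, their log2 fold change was 0.17 ± 0.46 (adjusted p = 0.858) and 0.97 ± 0.47 (adjusted p = 0.201). Per kb, Cyp4a12b made up 16.2% ± 3.86 of the pair in control livers and 16.8% ± 2.72 in ketogenic livers. In high-fat livers it made up 9.25% ± 6.49, with 4.71% in replicate 2 and 1.64% in replicate 5. Cyp4a12a is known for a higher level in male than in female liver, so a list of 21 other genes, with male-biased liver expression or a part in hormone signalling, was read beside it. Of these, 1 rose and 4 fell in high-fat livers and 3 fell in ketogenic livers, where 12.0% and 12.1% of all genes were called, with median log2 fold changes of -1.04 and -0.69. The 1 that rose was Stat5b, a signal transducer of growth hormone. Those that fell in both comparisons were Moxd1, Ugt2b1, a glucuronosyltransferase, and Ugt2b38.

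Cyp4f15, a further eicosanoid hydroxylase, differed little between diets. Its controls had 102, 130.2, 118 and 152 CPM, the high-fat libraries 141, 119, 146, 157 and 144, and the ketogenic libraries 117, 128, 138, 137 and 121. Its log2 fold change was 0.17 ± 0.12 in high-fat livers, with a 95% interval of -0.08 to 0.42 (adjusted p = 0.381). In ketogenic livers it was 0.03 ± 0.12, with an interval of -0.22 to 0.28 (adjusted p = 0.902). Both intervals exclude a change as large as that of Cyp4f14.

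Cyp4v3, the counterpart of human CYP4V2, which is mutated in Bietti crystalline dystrophy of the retina, was among the most abundant members in all diets. It had 365, 395, 443 and 459 CPM in control and 418, 373, 331, 424 and 309 in high-fat libraries. The ketogenic libraries had 469, 465, 575, 605 and 262 CPM, of which 4 lay above every control and replicate 5 below all of them. The log2 fold change was -0.16 ± 0.19 (adjusted p = 0.623) in high-fat and 0.19 ± 0.19 (adjusted p = 0.540) in ketogenic livers.

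Between the fat-rich diets, 0 of the 9 members were called in ketogenic against high-fat livers by edgeR, where 0.0615% of all genes were called. For no member were the libraries of these diets apart, against 1.76% of all genes. DESeq2 also called 0 members, and its count over all genes is given at the end. In edgeR, 2 members, Cyp4a12b and Cyp4a31, had an unadjusted p under 0.05. The share of all genes under that level was not counted, so this number has no background to be read against. Cyp4a12b differed by 1.51 ± 0.63 (95% interval 0.15 to 2.87, adjusted p = 0.509) and Cyp4a31 by 0.80 ± 0.31 (0.15 to 1.45, adjusted p = 0.430). The intervals of Cyp4a14 (-0.58 to 2.05) and Cyp4a10 (-0.77 to 1.30) leave room for differences of more than the size of 1 on the log2 scale. Those of Cyp4f14 (-0.47 to 0.45), Cyp4f15 (-0.38 to 0.10), Cyp4a32 (-0.02 to 0.68) and Cyp4v3 (-0.03 to 0.74) are narrower. Ketogenic replicate 5 and high-fat replicate 1 bear on this comparison. Without both, a choice made after seeing the data, Cyp4v3 was 0.56 higher in ketogenic livers (adjusted p = 0.0307). It was the 1 member called, where 4.43% of all genes tested were called. For Cyp4v3, ketogenic replicate 5 (262 CPM) was the lowest of its diet. High-fat replicate 1 (418 CPM) lay above its diet mean of 371, so leaving out both raises the difference. With 1 library left out, the Cyp4v3 difference reached at most 0.51 and was not called.

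Per kb of exon, which allows levels of different genes to be set side by side, the order of the members differed by diet. In control livers Cyp4f14 led with 141 ± 4.94 CPM per kb, followed by Cyp4v3 with 109 ± 11.4 and Cyp4f15 with 55.1 ± 9.18. The libraries of these 3 genes did not overlap. Cyp4a12a followed with 47.2 ± 19.2 and overlapped with Cyp4f15. Cyp4a12b (8.57), Cyp4a32 (6.77), Cyp4a10 (4.15), Cyp4a14 (1.05) and Cyp4a31 (0.297) came last, each overlapping with its neighbour. The length of Cyp4a32 in the annotation, 1.536 kb, is almost its coding sequence alone, so its value per kb stands less securely beside the others.

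In high-fat livers Cyp4a10 led with 179 ± 74.9 CPM per kb and Cyp4a14 followed with 165 ± 123, overlapping with each other and with Cyp4v3 at 97.4 ± 13.4. In ketogenic livers Cyp4a14 led with 275 ± 151, before Cyp4a10 with 215 ± 79.3 and Cyp4v3 with 125 ± 35.3, again with overlap. Cyp4f14 stood at 75.0 ± 23.3 and 74.6 ± 23.2 in these diets. Cyp4a31 was last in both, at 2.07 and 3.61 CPM per kb.

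**Figure D3:**
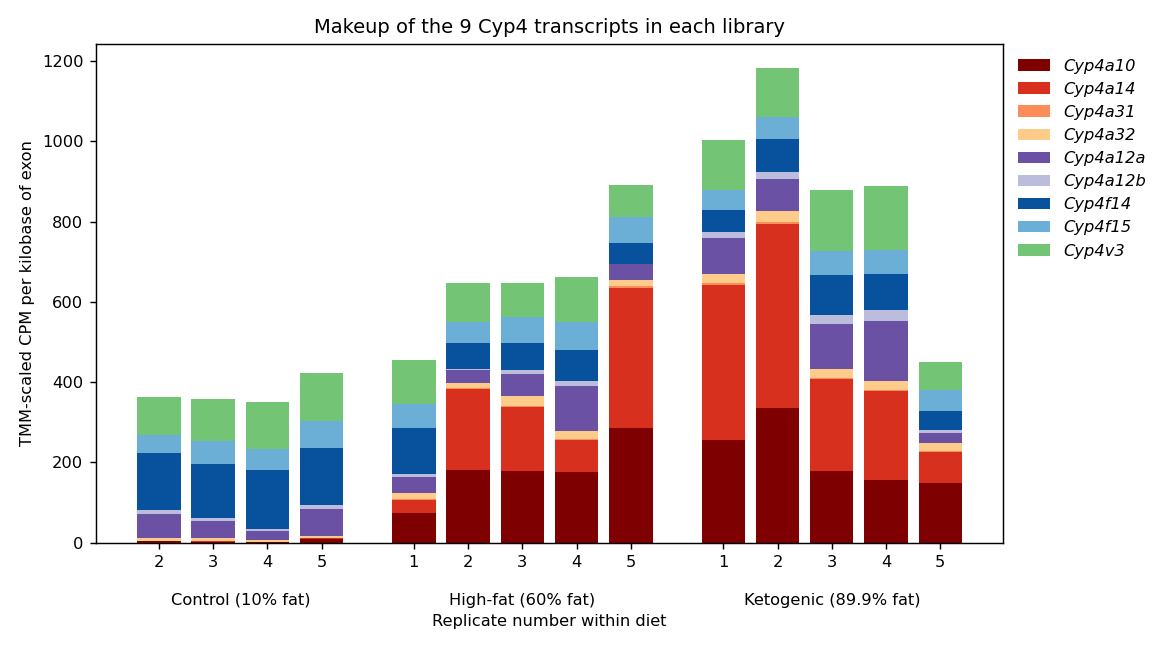
Summed level of the 9 Cyp4 genes in each library, in CPM per kb of exon, stacked by gene. Control libraries are made up mainly of Cyp4f14 and Cyp4v3, and Cyp4a10 and Cyp4a14 take up the largest parts in most libraries of the fat-rich diets.

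The makeup of the summed Cyp4 transcript pool followed from these levels. The 9 genes together had 373 ± 33.6 CPM per kb in control, 661 ± 155 in high-fat and 881 ± 271 in ketogenic livers. Ketogenic replicate 5, with 449 CPM per kb, and high-fat replicate 1, with 456, were the lowest of their diets and still lay above the highest control, 423. The 6 Cyp4a genes made up 18% ± 5.83 of the sum in control, 62.0% ± 14.9 in high-fat and 69.5% ± 7.50 in ketogenic livers. The control range, 10.0% to 22.4%, did not meet the high-fat range, 37.7% to 78.0%, or the ketogenic range, 62.5% to 78.0%. Cyp4f14 alone made up 38.0% ± 3.51, 12.6% ± 7.17 and 8.86% ± 2.58.

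The balance between Cyp4a14 and Cyp4a10 also moved with diet. The ratio of Cyp4a14 to Cyp4a10 per kb was 0.298 ± 0.0752 in control livers, with a range of 0.209 to 0.388. In high-fat livers it was 0.828 ± 0.367, with 0.450 in replicate 1 and 0.449 in replicate 4 and between 0.890 and 1.23 in the other 3. In ketogenic livers it was 1.22 ± 0.410, with 0.502 in replicate 5 and between 1.29 and 1.51 in the other 4. No library of a fat-rich diet overlapped with control, and the fat-rich diets overlapped with each other through ketogenic replicate 5. The control ratios rest on 17 to 94 reads of Cyp4a14 and 43 to 365 reads of Cyp4a10 a library. Reads of Cyp4a31 or Cyp4a32 counted to Cyp4a10 would lower a ratio, and their number is unknown.

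**Figure D4:**
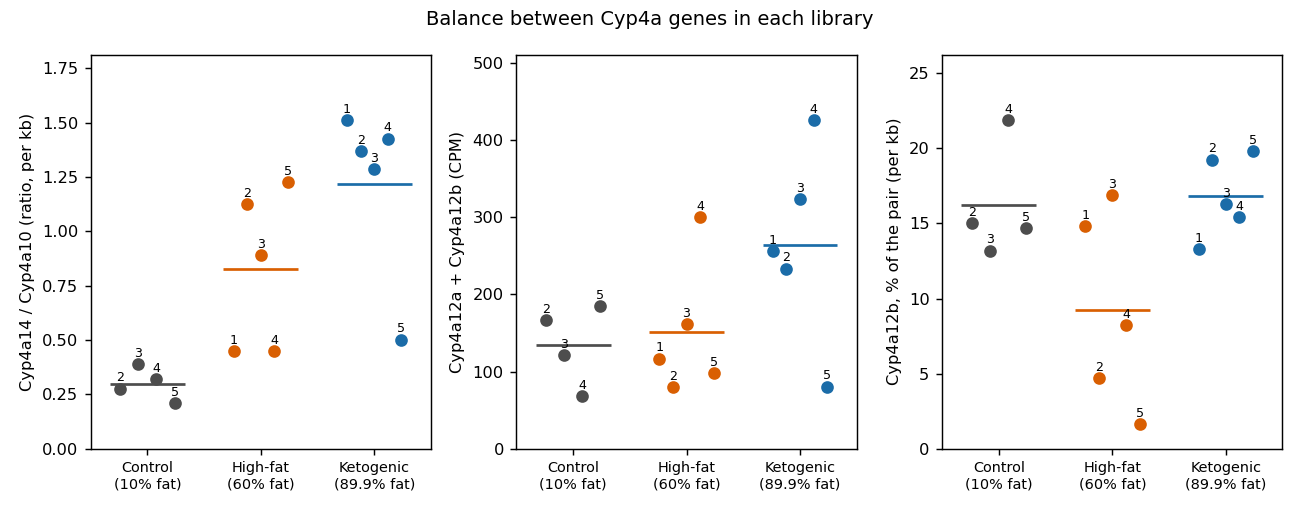
Ratio of Cyp4a14 to Cyp4a10 per kb (left), summed CPM of Cyp4a12a and Cyp4a12b (middle) and share of Cyp4a12b in that pair per kb (right), for each library by diet, with diet means as lines. The ratio lies below 0.4 in all controls and above 0.4 in all other libraries, and 2 high-fat libraries stand out with a low Cyp4a12b share.

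Of 11 further Cyp4 genes read beside the members, 6 had enough reads to be tested. Cyp4f17 rose in both comparisons with control, by 1.05 ± 0.23 in high-fat (adjusted p = 0.00812) and 1.38 ± 0.23 in ketogenic livers (adjusted p = 0.00107). Cyp4f13 fell by 0.55 ± 0.15 in high-fat livers (adjusted p = 0.0230), and Cyp4f39, at under 1 CPM in every library, rose by 1.61 ± 0.48 in ketogenic livers (adjusted p = 0.0392). Cyp4b1, Cyp4f16 and Cyp4f18 passed the test in neither comparison.

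The enzymes that pass electrons to Cyp4 proteins and that oxidise their products were read from a list of 13 genes, 12 of them tested. Of these, 3 rose in high-fat livers and 3 rose and 1 fell in ketogenic livers, where 12.0% and 12.1% of all genes were called. Aldh3a2, the fatty aldehyde dehydrogenase that completes omega-oxidation, had 211 ± 61.8 CPM in control, 852 ± 127 in high-fat and 963 ± 130.2 in ketogenic livers. Its log2 fold change was 2.02 ± 0.19 (adjusted p = 1.86e-05) and 2.19 ± 0.19 (adjusted p = 1.15e-05). Aldh1a1 and Aldh9a1, further aldehyde dehydrogenases, rose in both, by 1.18 and 0.53 in high-fat and by 1.35 and 0.60 in ketogenic livers. Por, the reductase that all microsomal P450 enzymes draw on, had 568 ± 141, 583 ± 138 and 590.2 ± 143 CPM and was not called. Cyp2e1, which also hydroxylates fatty acids near their end, had log2 fold changes of -0.18 and 0.25 and was not called. Cyb5r3, the cytochrome b5 reductase, fell in ketogenic livers by 0.79 ± 0.12 against control (adjusted p = 0.000454) and by 0.76 ± 0.11 against high-fat (adjusted p = 0.0223), one of 9 genes called in the latter comparison.

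Genes of the peroxisomal breakdown of dicarboxylic acids, the later part of the pathway, were higher in the same diets as the 4 Cyp4a genes. Of 16 listed genes, 14 rose and 0 fell in each comparison with control, with median log2 fold changes of 0.94 and 1.10. Of all tested genes, 12.0% and 12.1% were called in these comparisons. Abcd3 and Scp2 were not called. Ehhadh, the peroxisomal bifunctional enzyme, rose by 1.01 ± 0.19 (adjusted p = 0.00286) and 1.15 ± 0.19 (adjusted p = 0.000835). Acaa1b, a peroxisomal thiolase, rose by 2.03 and 1.87. None of the 16 was called in ketogenic against high-fat livers, with a median of 0.07, where only 0.0615% of all genes were called. The rises of Cyp4a10 and Cyp4a14, above 5 on the log2 scale, exceeded that of every gene of this list.

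The transcript of PPAR-alpha itself did not pass the test. Ppara had 103 ± 31.2 CPM in control, 131 ± 33.3 in high-fat and 125 ± 40.9 in ketogenic livers, with log2 fold changes of 0.34 (adjusted p = 0.447) and 0.27 (adjusted p = 0.533). Of 15 genes for PPAR receptors and their partners, Pparg rose by 1.95 (adjusted p = 0.000618) and 1.86 (adjusted p = 0.000527). Ppard fell in ketogenic livers by 0.61 (adjusted p = 0.0248).

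**Figure D5:**
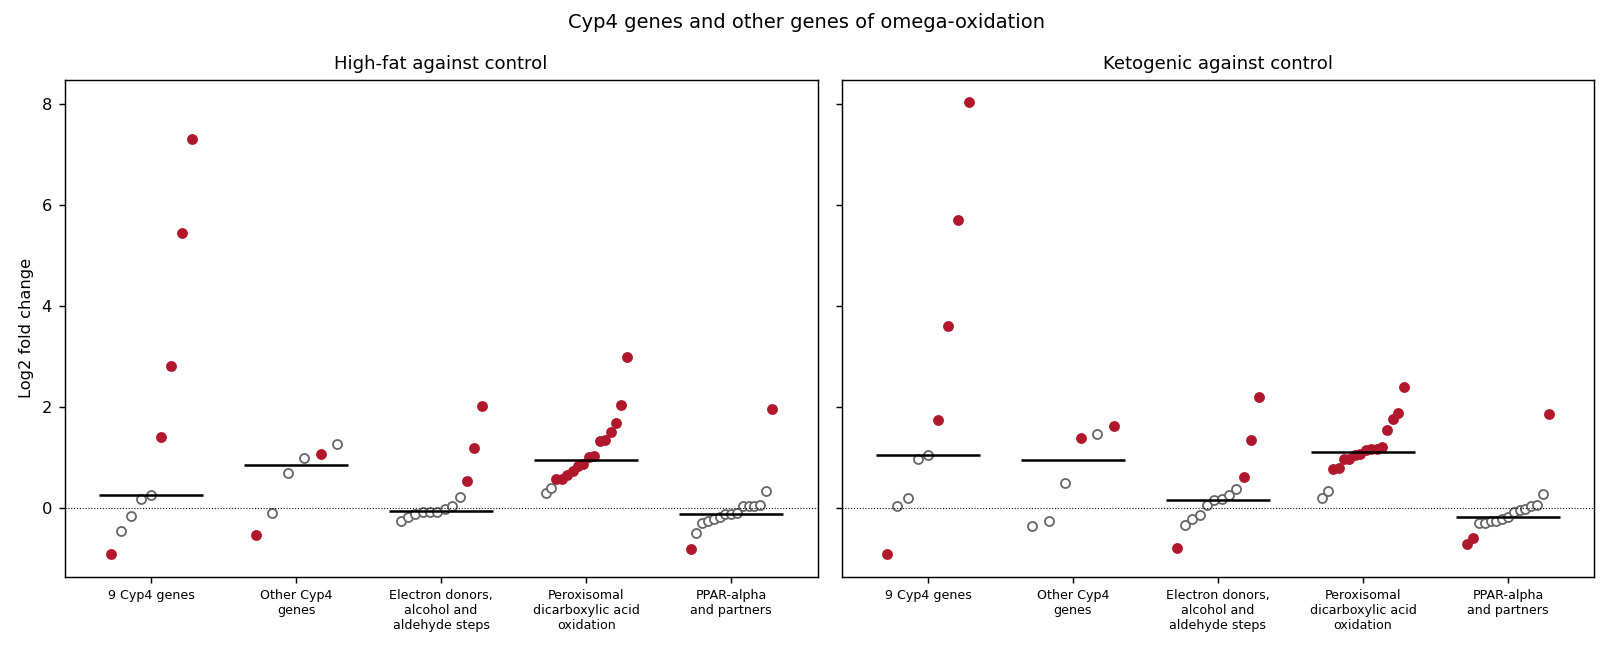
Log2 fold changes of the 9 Cyp4 genes and of 4 gene lists in high-fat and ketogenic against control livers. Each point is a gene, filled where it passed the test, and the bar is the list median; 14 of 16 peroxisomal genes are filled above 0 in both panels.

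Genes with a pattern like that of a member were ranked by Pearson's r of log2 CPM over the 14 libraries, among 11626 genes with a mean of at least 1 CPM. The libraries share diet and depth, so r is a description of these samples. Closest to Cyp4a14 were Slc22a5, a carnitine transporter (r = 0.986), Vnn1, a pantetheinase (0.980), and Pex11a, a peroxisomal membrane protein (0.978). Closest to Cyp4a10 were Mtnr1a, a melatonin receptor (0.986), Acot2, a mitochondrial acyl-CoA thioesterase (0.981), and Aldh3a2 (0.981). Closest to Cyp4f14 were F7, coagulation factor VII (0.979), Ugt2b1 (0.977) and Kpna2, a nuclear import factor (0.970). Taking out the diet means left r between 0.723 and 0.826 for the first 2 sets and between 0.927 and 0.951 for the genes like Cyp4f14. For Cyp4a12a the closest genes had lower values, with Lims2 at 0.866, Timm44 at 0.843 and Gemin2 at 0.834, and with diet means taken out they stood at 0.834, 0.838 and 0.807.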

How the data were processed

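Poly(A) RNA was purified from total liver RNA and made into strand-keeping libraries, per the labels. The authors deposited whole-number counts per Ensembl gene. Tools named in the submitters' processing notes, with no order or role, are STAR 2.7.9a, cutadapt 1.16, featureCounts 1.6 and DESeq2 1.36.0, with the build GRCm39. The annotation release and the strand setting are not stated in the sources at hand.

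Symbols came from GENCODE M21 (GRCm38, 91.4% of identifiers matched), as did exon lengths and coding sequences. This is another build than that of the counts. Genes were kept by filterByExpr of edgeR 4.0.16 (count 10, total 15), scaled by TMM (factors between 0.886 and 1.215), fitted over the 3 diets with robust glmQLFit and tested two-sided with glmQLFTest in R 4.3.3, at a biological coefficient of variation of 0.250. Benjamini-Hochberg adjustment ran over all 14627 genes. The test was tried on simulated counts. Errors are SD for levels and SE for log2 fold changes, and intervals are 95%.

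Alternatives were other filters, other scalings, DESeq2 1.42.0, 2-diet fits, the replicate number as a block, summed copies and leaving out libraries. Control replicate 1 entered no comparison. All 9 members are named. From each list, up to 3 genes with the smallest adjusted p per comparison could be named, with Ppara, Por, Cyp2e1, Aldh3a2 and Ehhadh whatever their result. Cyp4b1, Cyp4f16, Cyp4f18, Abcd3 and Scp2 were named to complete a count, after their values were seen. Not every called list gene is reported here. Members and lists were chosen with earlier results of these data known.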

Additional observations from a re-analysis of the deposited data

Results flagged for a closer look

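Cyp4a12a in high-fat replicate 4, at 276 CPM, was the highest of its 5 libraries and lay far from the others, with a gap to the next library of 0.711 of the whole range, just past Dixon's critical value for 5 samples. Of 27 groups of a member and a diet tested in this way, this was the 1 that passed, and chance flags about 1 in 20 groups.

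Control replicate 1, which the submitters excluded as contaminated, held values of 6 Cyp4a genes above the range of the other 4 controls. In CPM of the library total, Cyp4a10 had 89.1 against a control range of 2.0 to 18.4. Cyp4a14 had 65.4 against 0.792 to 4.75. Cyp4a12a had 169 against 48.3 to 139.7, and Cyp4a12b had 28.8 against 13.4 to 23.8. Cyp4a31 had 2.0 against 0.559 to 0.859, and Cyp4a32 had 18.2 against 7.40 to 12.3. Cyp4f14, at 277, lay below the control range of 303 to 329, and Cyp4f15 and Cyp4v3 lay within it. The 4 Cyp4a genes that rose in the fat-rich diets were among those above the range. The share of all genes outside the control range in this library was not counted, so these positions have no background to be read against. Cyp4a10, Cyp4a31 and Cyp4a32 are close copies, as are Cyp4a12a and Cyp4a12b, so the 6 genes are not separate cases.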

How the results depend on the processing

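The 5 members called against control in each fat-rich diet stayed 5, with 4 higher and 1 lower, under every other filter, scaling and test tried and without both ketogenic replicate 5 and high-fat replicate 1, a choice made after seeing the data. This count does not apply with copies summed, because Cyp4a10, Cyp4a31 and Cyp4a32 then form 1 feature. That feature and Cyp4a14 were called higher and Cyp4f14 lower in both comparisons with control. Leaving out 1 library at a time gave 4 to 5 members in high-fat and 5 in ketogenic livers. Between the fat-rich diets the count was 0 except without both libraries, where it was 1. Scaling by library totals instead of TMM shifted the median gene by 0.127 in high-fat and 0.177 in ketogenic against control.

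Signs turned for uncalled differences near 0. Cyp4a12a in high-fat against control ran from -0.17, without high-fat replicate 4, to 0.45, without control replicate 5. Cyp4f15 in ketogenic against control ran from -0.0587 to 0.129 when 1 library was left out. Cyp4f14 in ketogenic against high-fat was 0.0148 with library totals, 0.00243 with the replicate block, -0.14 to 0.19 with 1 library left out, and 0.32 without both libraries. The cause was not tested.

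Replicate numbers showed no regular pairing of the libraries, judged by correlating deviations of log2 CPM from the diet means. Between same-numbered libraries these ran from -0.175 to 0.126 in high-fat and control and from -0.033 to 0.483 in ketogenic and control. In ketogenic and high-fat livers they ran from -0.45 to 0.27. The best match carried the same number for 1 of 4, 1 of 4 and 0 of 5 libraries. The 0.483 was that of ketogenic and control replicates 2. With the replicate number as a block, 5, 5 and 0 members were called, and 1380, 1297 and 15 genes in all, against 1749, 1766 and 9.

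The number of all genes called against control was 1131, 1077, 934 and 1132 in high-fat livers without high-fat replicate 4 and control replicates 3, 4 and 5, and 3239 without both libraries. In ketogenic livers it was 1156, 1056 and 1124 without control replicates 3, 4 and 5. Between the fat-rich diets it was 26 without a filter, 15 with library totals, 168 with DESeq2, 1 with only those diets fitted, 1 to 315 with 1 library left out and 636 without both. With library totals, 1302 genes were higher and 420 lower in high-fat and 1826 and 368 in ketogenic livers. Low read numbers limit Cyp4a31 and the control levels of Cyp4a14.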
